A study of Neurospora crassa with 12 samples.

Results

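The passage of Neurospora crassa conidia from dormancy to polar growth was described over all genes by comparing 3 libraries of stage 2, polar growth, with 3 libraries of stage 1, fresh conidia. These are 6 of the 12 libraries of the series, and 8330 of the 10592 genes in the count table had enough counts to be tested. Stage 2 and stage 1 were both sampled from the wild-type strain FGSC2489, a single strain that carries no engineered allele. By the growth protocol its conidia were spread on cellophane over Bird medium, on which N. crassa grows asexually, and kept at 37 °C, and by the study's methods in continuous light. Each library holds the pooled tissue of several plates, taken when most spores had reached the stage. The sample titles place stage 2 at 60 min and stage 1 at 15 min, whereas the time point tags give 120 min and 15 min. The source name gives PDA in place of Bird medium. In the study's methods the title times belong to the Bird medium culture and the tag times to a cooler culture on PDA. Which of the labels is right was not tested, and stage numbers are used throughout.

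A conidium is a dormant asexual spore with a water-repellent rodlet coat, stored sugars and enzymes that remove peroxide. On a nutrient surface it swells, resumes synthesis and degradation of proteins, and then extends a germ tube whose tip is built by actin, secretory vesicles and cell wall synthases. Young germ tubes of N. crassa find and fuse with each other under the control of MAP kinase cascades.

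Library totals lay between 48267425 and 67081431 counts in stage 2, against 66829396 to 71990884 counts in stage 1. Levels are given in CPM (counts of a gene scaled to a fixed library total, with TMM factors), and they are relative to the messenger RNA in the library. A fall therefore cannot be told apart from a smaller share of the RNA, and fewer cells of a kind cannot be told apart from less RNA per cell. Ribosomal RNA genes took 5.45% to 9.01% of the counts in stage 2, against 2.45% to 7.12% in stage 1. In stage 3 replicate 2, which enters the fit of all 12 libraries, they took 37.9%. The libraries labelled stage 2 could not be separated from those labelled stage 4, the onset of branching. Between them the edgeR test called 0 of 8330 genes, and DESeq2 called 1. By edgeR 136 genes (1.63%) had an unadjusted p below 0.05, a share that is itself below 0.05. The median absolute log2 change was 0.044. Between stage 3 and stage 2 edgeR called 3247 genes (39.0%), with a median absolute log2 change of 0.22. Whether a label is exchanged was not tested, and all values below hold for the libraries as labelled.

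Markers of conidia and of germ tubes were first set against the labels. Of 7 conidial markers, 6 were lower in stage 2, and the summed level of all 7 was 104 to 113 CPM in stage 2, against 12620.3 to 15365 CPM in stage 1. The exception was acon-3, a regulator of conidiophore development, with 2.26 ± 0.255 CPM in stage 2, 1.23 ± 0.0986 CPM in stage 1. All 4 germ tube markers rose, among them chs-3, a chitin synthase gene, and hex-1, which encodes the core protein of the Woronin bodies that plug septal pores (827 ± 44.6 CPM in stage 2, 313 ± 20.7 CPM in stage 1). Of 5 sexual tissue markers, 3 were tested and all fell. Their summed level was 3.42 to 4.65 CPM in stage 2, against 97.0 to 143 CPM in stage 1, most of it from poi-2 (0.420 ± 0.151 CPM in stage 2, 105 ± 25.7 CPM in stage 1). The markers per-1 and fbm-1 were near 0 in both stages.

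More than 3 in 4 genes differed between the stages, and the counts of rises and falls were close. The edgeR test at an adjusted p below 0.05 called 6438 genes, 77.3% of those tested. Of these, 3285 were higher in stage 2 (39.4% of genes tested) and 3153 were lower (37.9%). Which direction had more calls depended on the scaling, with 3111 higher and 3309 lower under the size factors of DESeq2. At least 2-fold differences were found for 1481 genes that were higher (17.8%) and 1501 that were lower (18.0%). These shares are the background for every list below. For counts of rises and falls of any size the background is 39.4% and 37.9%. Among larger changes the falls were more numerous. At least 16-fold, 106 genes were higher and 173 lower, and at least 64-fold, 34 were higher and 61 lower. The median log2 change of all genes was 0.01. For 80.2% of the genes tested the libraries of the 2 stages did not overlap. This share is the background wherever a gene below is said not to overlap. The median SD of log2 levels among replicates was 0.053 in stage 2 and 0.11 in stage 1, over 6006 genes with at least 10 CPM in either stage.

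**Figure D1:**
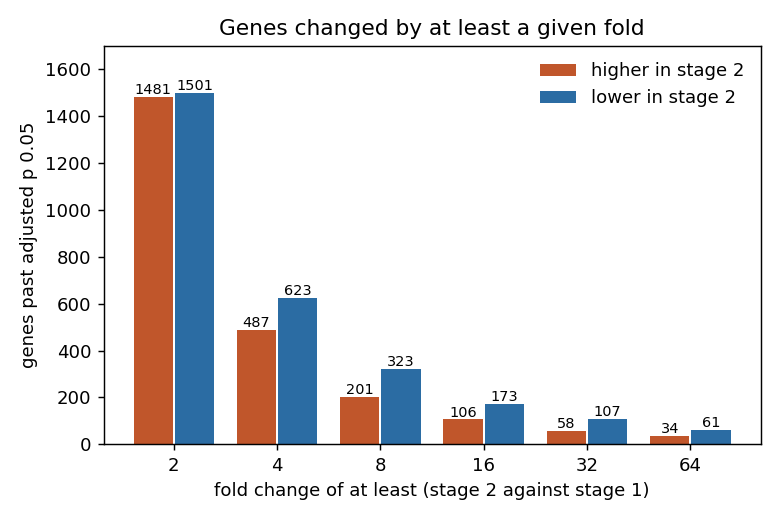
Number of genes past an adjusted p of 0.05 (vertical axis) that were higher or lower in stage 2 by at least the fold on the horizontal axis. From 1481 higher and 1501 lower genes at 2-fold, the bars fall to 34 higher and 61 lower genes at 64-fold, with more falls than rises at each fold.

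To see which functions moved, 843 genes with a symbol were placed in 42 lists by function, leaving out genes of secondary metabolism clusters (SMCs) and ribosomal RNA genes, and 820 of them were tested. The lists with the highest medians were hyphal fusion (2.27 on the log2 scale), the proteasome (2.06), and glycolysis with pyruvate metabolism (2.06). The lowest were antioxidant defence (-1.87), conidiation (-1.60) and mating (-1.52). Every tested member was upregulated in the proteasome, hyphal fusion, glycolysis and COP9 lists and in the list of 2 sterol and fatty acid synthesis genes. Of the 1059 tested protein-coding genes with a symbol, 869 changed (82.1%), against 5386 of 6996 genes without one (77.0%).

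**Figure D2:**
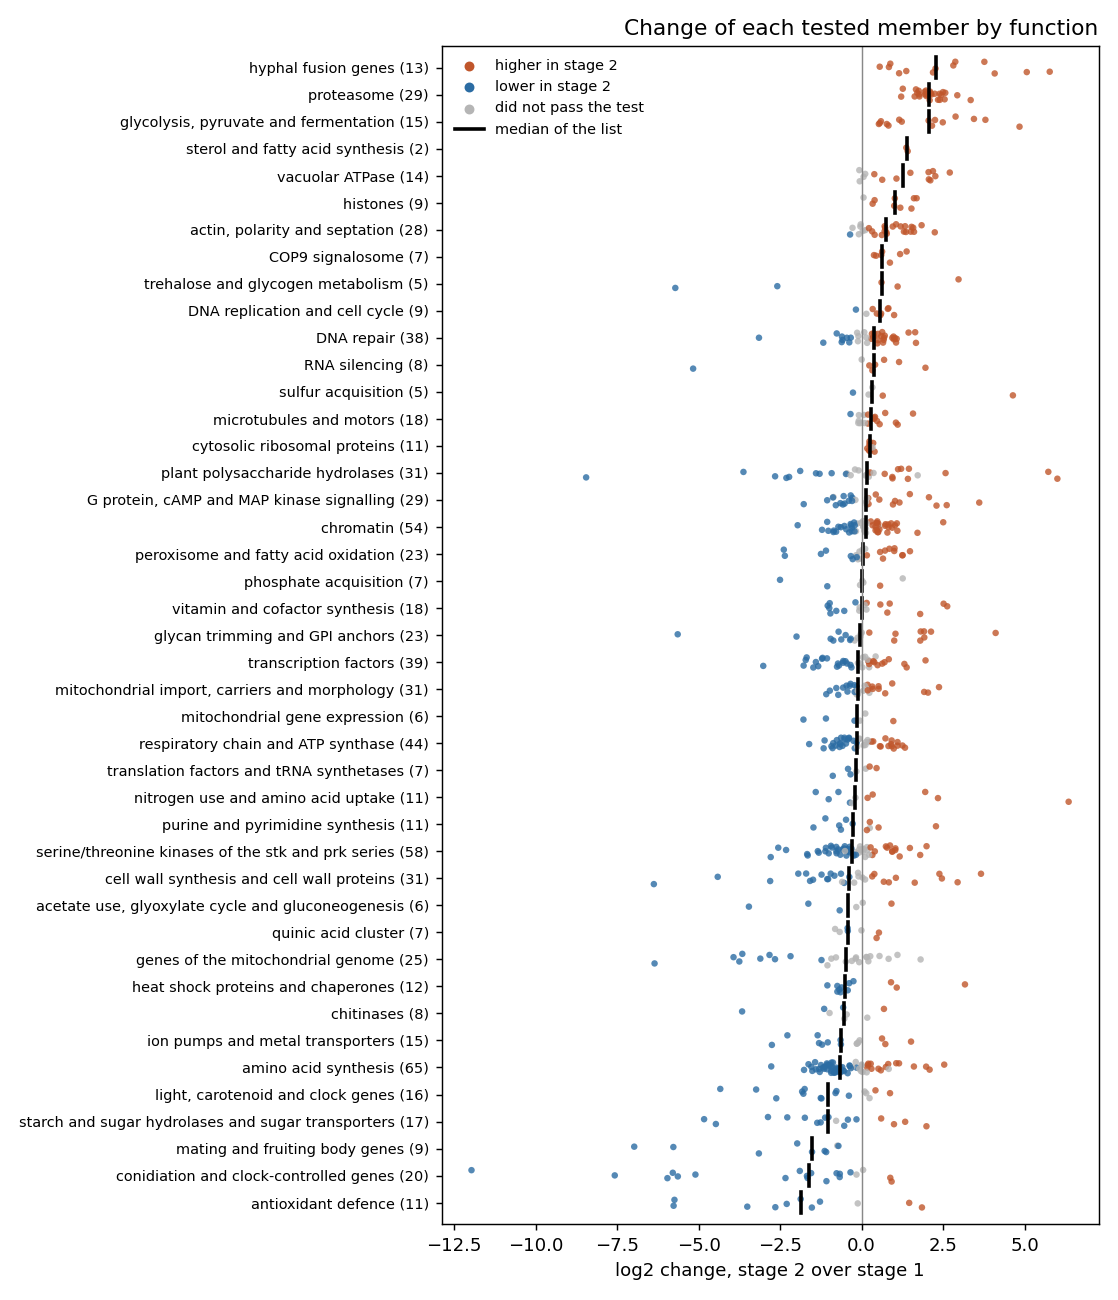
Log2 change, stage 2 over stage 1 (horizontal axis), of each tested member of 42 function lists and of the genes of the mitochondrial genome, with the number tested in brackets and a black bar at the list median. Hyphal fusion genes, with a median of 2.27, stand at the top and antioxidant genes, with a median of -1.87, at the bottom.

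Conidiation genes fell. Of 20 tested, 16 fell and 2 rose, and 12 fell at least 2-fold. eas (NCU08457, NC12 chromosome II, 3570905 to 3572798), whose hydrophobin product forms the rodlet coat, had 58.5, 58.5 and 58.4 CPM in stage 2, against 12329, 10472 and 10549.6 CPM in stage 1. Its mean was 190.1-fold lower in stage 2 (log2 change -7.57 ± 0.17, ± SE here and below, edgeR adjusted p = 2.09e-13). The clock-controlled gene ccg-1 had 18.2, 15.7 and 14.8 CPM in stage 2, against 1248, 887 and 878 CPM in stage 1, a log2 change of -5.96 ± 0.19. The conidiation genes con-6 (21.1 ± 2.25 CPM in stage 2, 1047 ± 229 CPM in stage 1), con-8 (8.34 ± 1.23 CPM in stage 2, 284 ± 32.9 CPM in stage 1) and con-10 (2.17 ± 0.405 CPM in stage 2, 122 ± 27.0 CPM in stage 1) fell as well, with log2 changes of -5.64, -5.10 and -5.79. No library of stage 2 overlapped stage 1 for any of these 5 genes, as held for 80.2% of all genes tested. The regulators of conidiation fl (6.72 ± 0.0745 CPM in stage 2, 25.004 ± 1.65 CPM in stage 1) and csp-1 (53.6 ± 2.21 CPM in stage 2, 171 ± 24.6 CPM in stage 1), singled out after their values were seen, fell less. Besides acon-3, ccg-16 rose (130.1 ± 7.29 CPM in stage 2, 68.7 ± 6.34 CPM in stage 1).

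Clock and light genes followed, with 11 of 16 lower and 2 higher. The clock gene frq had 48.0, 50.9 and 46.7 CPM in stage 2, against 389, 471 and 511 CPM in stage 1, and the stages did not overlap (log2 change -3.23 ± 0.10). The blue light receptor gene vvd had 376, 372 and 356 CPM in stage 2, against 1371, 1213 and 1223 CPM in stage 1, a log2 change of -1.79. frh, for the helicase that binds the FRQ protein, had 216 ± 1.12 CPM in stage 2, 514 ± 50.5 CPM in stage 1, and wc-1, the photoreceptor that activates frq, had 36.2 ± 8.52 CPM in stage 2, 128 ± 34.6 CPM in stage 1. The carotenoid genes al-2 and al-3, which the study places in SMCs, were left out of the list. Of those kept, cao-2 and ylo-1 did not share a direction. cao-2, for the oxygenase that cleaves torulene, had 87.9 ± 7.15 CPM in stage 2, 539 ± 11.1 CPM in stage 1, whereas ylo-1, for a late step of the same pathway, rose (45.8 ± 1.87 CPM in stage 2, 25.02 ± 1.74 CPM in stage 1). nop-1, for an opsin, was lower in every library (0.519 ± 0.176 CPM in stage 2, 10.5 ± 1.295 CPM in stage 1). The culture was lit throughout. frq, wc-1, cao-2 and nop-1 were singled out after their values were seen.

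Mating genes fell in 8 of 9 tested cases, 7 of them at least 2-fold. The pheromone precursor gene ccg-4 had 0.434, 0.389 and 0.132 CPM in stage 2, against 17.2, 16.7 and 16.9 CPM in stage 1 (log2 change -5.77 ± 0.29, adjusted p = 3.73e-10). The mating type gene matA-1 had 3.48 ± 0.389 CPM in stage 2, 30.8 ± 7.50 CPM in stage 1, and the pheromone receptor gene pre-1 2.26 ± 0.189 CPM in stage 2, 8.87 ± 0.477 CPM in stage 1, both singled out after their values were seen. fsd-1, a gene of female sexual development, also fell (19.7 ± 1.23 CPM in stage 2, 56.5 ± 5.78 CPM in stage 1).

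Stress defence fell in parts. Of 11 antioxidant genes, 8 fell, all at least 2-fold, and 2 rose, against 18.0% of all genes that fell so far. The catalase gene cat-2 had 17.2, 16.8 and 18.1 CPM in stage 2, against 769, 1120.5 and 944 CPM in stage 1, a log2 change of -5.77 ± 0.13. The glutathione S-transferase gene gst-2 had 32.96, 36.4 and 38.8 CPM in stage 2, against 1992, 1838 and 1951 CPM in stage 1, a log2 change of -5.74 ± 0.11. Neither gene had overlapping stages. The catalases cat-1, cat-3 and cat-4 fell too, with log2 changes of -1.53, -1.87 and -1.28, and all 4 gst genes fell. The superoxide dismutase gene sod-1 went the other way (572 ± 21.3 CPM in stage 2, 159 ± 8.12 CPM in stage 1), as did trx for thioredoxin (41.3 ± 2.09 CPM in stage 2, 15.0 ± 1.88 CPM in stage 1).

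Of 12 heat shock and chaperone genes, 9 were lower, 1 of them at least 2-fold, and 3 were higher. With library totals 6 were lower. hsp80 had 2334 ± 91.6 CPM in stage 2, 3907 ± 805 CPM in stage 1. hsp70-1 (4855 ± 135 CPM in stage 2, 6324 ± 1271 CPM in stage 1) and hsp70-2 (5163 ± 199 CPM in stage 2, 6141 ± 480.4 CPM in stage 1) lost their calls with library totals and without stage 1 replicate 2 (log2 changes -0.22 and -0.18), stage 2 replicate 1 (-0.36 and -0.21) or stage 2 replicate 3 (-0.34 and -0.22), and hsp70-1 also without stage 1 replicate 3 (-0.35). The 3 genes that rose were hsp90a (363 ± 17.1 CPM in stage 2, 194 ± 24.2 CPM in stage 1), grp78 and erp38. grp78, for the chaperone BiP of the endoplasmic reticulum, had 649, 692 and 777 CPM in stage 2, against 67.4, 93.9 and 74.0 CPM in stage 1, which is 9.002-fold higher in means (log2 change 3.17 ± 0.12). erp38, for a protein of the same compartment, had 94.9 ± 2.45 CPM in stage 2, 44.98 ± 1.93 CPM in stage 1.

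The 5 genes of stored sugars split, with 3 higher and 2 lower. tre-1, for a trehalase, which breaks down stored trehalose, fell, with 1.36, 1.79 and 1.42 CPM in stage 2, against 95.1, 76.8 and 69.4 CPM in stage 1 and a log2 change of -5.71 ± 0.21. The stages did not overlap. Its annotated span overlaps that of ngf-1, so reads in the overlap can be shared. The other trehalase gene, tre-2, rose (85.4 ± 0.557 CPM in stage 2, 55.9 ± 5.83 CPM in stage 1). The trehalose synthase gene ccg-9 fell (0.235 ± 0.0290 CPM in stage 2, 1.41 ± 0.101 CPM in stage 1). The glycogen synthase gene gsy-1 had 179.9, 182 and 195 CPM in stage 2, against 24.3, 24.8 and 21.8 CPM in stage 1, and the glycogenin gene gnn 100.2 ± 6.56 CPM in stage 2, 46.6 ± 6.21 CPM in stage 1, so both glycogen genes rose while the trehalose synthase gene fell.

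**Figure D3:**
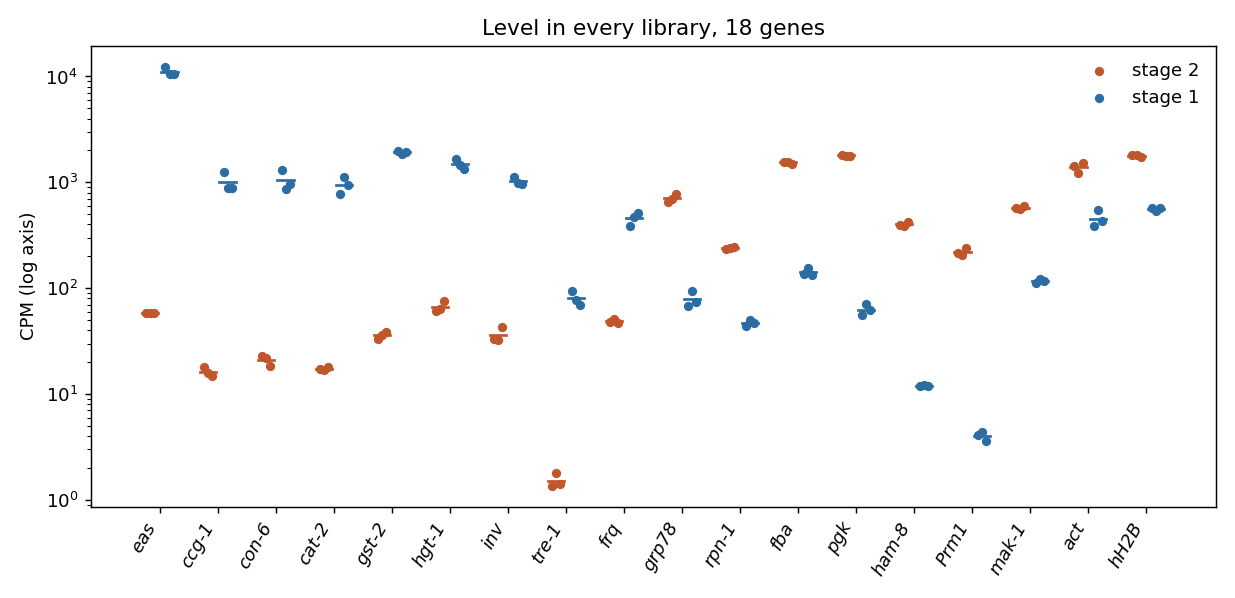
Level in CPM on a log axis of 18 genes in each of the 3 libraries of stage 2 (left of each pair) and stage 1 (right), with the mean as a bar. The stages do not overlap for any gene shown, as for 80.2% of all genes tested. Among the falls, eas had 58.4 to 58.5 CPM in stage 2 against 10472 CPM and more in stage 1. Among the rises, Prm1 had 206 CPM and more in stage 2 against at most 4.33 CPM in stage 1.

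Genes for taking up and splitting sugars also fell, with 12 of 17 lower, 9 at least 2-fold, and 4 higher. The glucose transporter gene hgt-1 had 61.4, 62.9 and 75.6 CPM in stage 2, against 1654, 1447 and 1329 CPM in stage 1, a log2 change of -4.47 ± 0.14. The invertase gene inv, singled out after its values were seen, had 33.2, 32.4 and 42.6 CPM in stage 2, against 1124, 991 and 968 CPM in stage 1, a log2 change of -4.83 ± 0.13. gh13-1, of a glycoside hydrolase family of amylases, fell as well (501 ± 5.93 CPM in stage 2, 1675 ± 38.8 CPM in stage 1). The stages did not overlap for these 3 genes. gh31-2 rose (175 ± 8.65 CPM in stage 2, 69.4 ± 6.60 CPM in stage 1).

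Genes of fatty acid oxidation fell, and of the genes that build peroxisomes more rose than fell. All 4 tested genes of beta-oxidation fell at least 2-fold, among them fox-2, the multifunctional enzyme of the cycle (103 ± 3.34 CPM in stage 2, 245 ± 17.1 CPM in stage 1), and the acyl-CoA dehydrogenase gene acd-1 (24.6 ± 2.24 CPM in stage 2, 126 ± 18.2 CPM in stage 1). Their summed level was 218 ± 8.55 CPM in stage 2 and 619 ± 62.8 CPM in stage 1 (SD, n = 3 each). Of the 19 peroxins, which build peroxisomes, 10 rose, 3 fell and 6 did not pass the test, while with library totals 9 rose and none of the falls was called. pex6, for an ATPase that recycles the import receptor, had 90.7 ± 1.84 CPM in stage 2, 38.2 ± 4.85 CPM in stage 1, and pex19, for a chaperone of peroxisomal membrane proteins, had 76.0 ± 2.56 CPM in stage 2, 27.2 ± 3.44 CPM in stage 1. This division of the list was made after the values were seen. In the acetate list, acu-3 for isocitrate lyase (100.2 ± 1.99 CPM in stage 2, 311 ± 52.9 CPM in stage 1) and acu-6 for phosphoenolpyruvate carboxykinase (2.04 ± 0.257 CPM in stage 2, 22.5 ± 0.404 CPM in stage 1) fell, whereas acu-5 for acetyl-CoA synthetase rose (237 ± 6.77 CPM in stage 2, 126 ± 10.7 CPM in stage 1).

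Amino acid synthesis genes fell more often than they rose. Of 65 tested genes, 41 fell and 15 rose (63.1% and 23.1%, against 37.9% and 39.4% of all genes tested). At least 2-fold, 17 fell and 6 rose, against backgrounds of 18.0% and 17.8%. The median was -0.65. cpc-1, the transcription factor that activates amino acid synthesis genes under starvation, had 2101, 2121 and 2078 CPM in stage 2, against 4347, 4838 and 4775 CPM in stage 1, a log2 change of -1.15 ± 0.07. In the branched-chain pathways 6 of 7 genes fell, among them ilv-2 (1902 ± 44.7 CPM in stage 2, 4185 ± 667 CPM in stage 1), and in the arginine pathway 8 of 11, with arg-13, for a mitochondrial carrier, at 25.9 ± 0.897 CPM in stage 2, 177 ± 13.1 CPM in stage 1. Among the genes that rose, met-8, of methionine synthesis, had 3396, 3642 and 3479 CPM in stage 2, against 507, 652 and 657 CPM in stage 1 (5.79-fold). The glutamate genes am, for the NADP-dependent glutamate dehydrogenase (2489 ± 45.6 CPM in stage 2, 1653 ± 93.9 CPM in stage 1), and en(am)-2, for glutamate synthase (464 ± 10.4 CPM in stage 2, 109 ± 5.62 CPM in stage 1), rose as well.

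Cofactor and nucleotide genes were divided. The vitamin B6 genes pdx-1 (2548 ± 142 CPM in stage 2, 5018 ± 355 CPM in stage 1) and pdx-2 (405 ± 14.05 CPM in stage 2, 832 ± 42.7 CPM in stage 1) fell about alike, whereas bio-1 of biotin synthesis rose (61.7 ± 6.49 CPM in stage 2, 10.8 ± 0.971 CPM in stage 1). nmt-1, of thiamine synthesis and in no list, had 2604, 2721 and 2574 CPM in stage 2, against 355, 414 and 421 CPM in stage 1. Of 11 purine and pyrimidine genes, 4 rose and 6 fell (2 and 5 with library totals). ndk-1, for nucleoside diphosphate kinase, had 1092 ± 15.0 CPM in stage 2, 225 ± 7.32 CPM in stage 1, and pyr-3, for the enzyme that starts pyrimidine synthesis, had 1478 ± 28.3 CPM in stage 2, 4113 ± 779 CPM in stage 1.

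Genes of glycolysis rose together. All 15 tested genes of glycolysis, pyruvate metabolism and fermentation rose, 10 at least 2-fold against a background of 17.8%. The phosphoglycerate kinase gene pgk had 1812, 1792 and 1789.8 CPM in stage 2, against 56.0, 70.3 and 61.6 CPM in stage 1, a log2 change of 4.84 ± 0.13. The aldolase gene fba had 1564, 1563 and 1506 CPM in stage 2, against 135, 156 and 134 CPM in stage 1, a log2 change of 3.45 ± 0.08. The glyceraldehyde-3-phosphate dehydrogenase gene gpd-1 had 4525, 4637 and 4491 CPM in stage 2, against 835, 1039 and 992 CPM in stage 1, a log2 change of 2.25 ± 0.10. These 3 enzymes act in succession, and none of the genes had overlapping stages. The smallest log2 change was that of ace-2 (0.53). The log2 change was 1.15 for the citrate synthase gene cit-1 and 0.56 for cfp, for pyruvate decarboxylase (adjusted p = 0.046). cfp did not pass with DESeq2, with its size factors, in the fit of 6 libraries, with the replicate block (0.51 on the log2 scale) or without stage 1 replicate 1 (0.56), 2 (0.59) or 3 (0.59) or stage 2 replicate 2 (0.16).

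Protein degradation rose as a whole machine. All 29 proteasome genes were at least 2-fold higher, with log2 changes between 1.21 (rpn-11) and 3.35 (rpn-3). rpn-1, a base subunit of the 19S regulatory particle, had 232, 239 and 244 CPM in stage 2, against 44.3, 49.9 and 46.7 CPM in stage 1. rpn-3, of the lid, had 142, 150.4 and 149 CPM in stage 2, against 14.2, 13.97 and 15.2 CPM in stage 1. The 13 genes of the 20S core had a summed level of 1727 ± 16.1 CPM in stage 2 and 424 ± 24.1 CPM in stage 1, and the 16 genes of the 19S particle had 2168 ± 30.4 CPM in stage 2 and 525 ± 6.07 CPM in stage 1 (SD, n = 3 each). The median log2 changes of the core and the regulatory particle were 1.99 and 2.07. The COP9 signalosome, a complex built on the same plan as the proteasome lid, rose in 7 of 7 genes but by less, with a median of 0.63 and 57.3 ± 2.00 CPM in stage 2, 37.7 ± 4.17 CPM in stage 1 for csn-1.

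The genes of the vacuolar ATPase rose in 10 of 14 cases, 8 of them in one sector. This pump acidifies the vacuole and consists of a soluble V1 sector that splits ATP and a membrane V0 sector that carries protons. All 8 genes of V1 rose at least 2-fold, with a median of 2.09. The catalytic subunit gene vma-1 had 219 ± 2.84 CPM in stage 2, 77.7 ± 8.45 CPM in stage 1, and vma-2, for the other nucleotide-binding subunit, had 240.1, 245 and 258 CPM in stage 2, against 59.1, 60.7 and 59.1 CPM in stage 1. Of the 6 genes of V0, 2 rose and 4 did not pass the test, with a median of 0.09 and a range of -0.07 to 0.63. The proteolipid gene vma-3 had 279, 287 and 286 CPM in stage 2, against 312, 278 and 297 CPM in stage 1 (adjusted p = 0.366), and the stages overlapped. The sectors were set apart after the values were seen, so this is a description.

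The respiratory chain was divided in a similar way. Complex I, the proton-pumping NADH dehydrogenase, fell in 21 of 28 tested genes and rose in 1, with a median of -0.52, and its summed level was 789 ± 9.15 CPM in stage 2 and 1082 ± 75.4 CPM in stage 1 (SD, n = 3 each). With library totals 18 fell. Of the 8 genes of the cytochrome complexes and cytochrome c, 7 rose and 1 did not pass, with a median of 0.75, and all 3 genes of the ATP synthase rose. The ATP synthase subunit gene oli had 4136, 4244 and 3997 CPM in stage 2, against 1937, 1933 and 1893 CPM in stage 1, and atp-2, for the beta subunit, had 3831, 4014 and 3856 CPM in stage 2, against 1750.4, 2231 and 2196 CPM in stage 1. No library of the stages overlapped for either. aod-1, for the alternative oxidase that bypasses the cytochromes, had 60.6 ± 11.8 CPM in stage 2, 24.1 ± 0.832 CPM in stage 1. This division was also made after the values were seen.

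**Figure D4:**
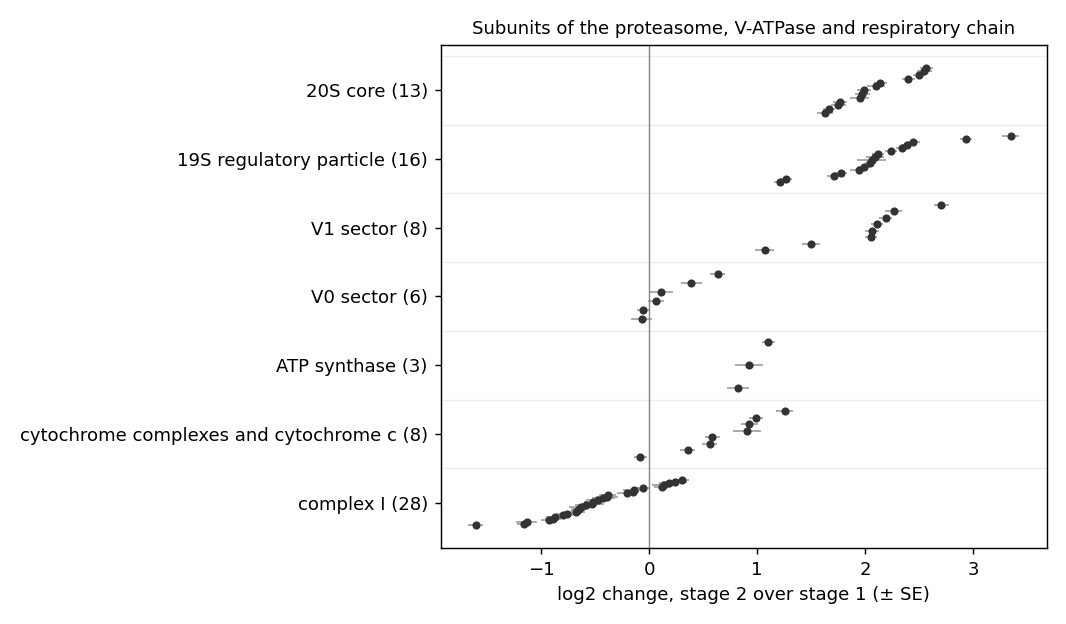
Log2 change, stage 2 over stage 1, with its SE (horizontal axis) of each tested subunit gene of the proteasome, the vacuolar ATPase and the respiratory chain, with the number of genes in brackets. The 20S core, 19S particle and V1 sector lie at medians of 1.99, 2.07 and 2.09, the V0 sector at 0.09 and complex I at -0.52.

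Mitochondrial import was mixed, with 11 of 31 genes higher and 12 lower (8 and 8 with library totals). The 11 and 12 genes are 35.5% and 38.7%, near the 39.4% and 37.9% of all genes tested. por, for the porin of the outer membrane, had 1426, 1459 and 1419 CPM in stage 2, against 320.2, 372 and 356 CPM in stage 1, and aac, for the ADP/ATP carrier, had 7573 ± 231 CPM in stage 2, 4583 ± 109 CPM in stage 1. tob55, the core of the machinery that inserts proteins such as porin into the outer membrane, rose too (65.7 ± 3.27 CPM in stage 2, 12.7 ± 1.81 CPM in stage 1), as did mim1 (52.5 ± 1.49 CPM in stage 2, 13.9 ± 1.01 CPM in stage 1). Of the 7 TOM genes of the entry gate, 4 fell and 3 did not pass, with 328 ± 10.6 CPM in stage 2, 422 ± 27.6 CPM in stage 1 for tom22. Genes for expression of the mitochondrial genome included falls of cyt-5, the mitochondrial RNA polymerase (137 ± 2.74 CPM in stage 2, 473 ± 53.3 CPM in stage 1), and cyt-19, an RNA helicase (203 ± 2.43 CPM in stage 2, 433 ± 55.3 CPM in stage 1).

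Tip growth genes rose. Of 28 tested genes of actin, polarity and septation, 21 rose and 1 fell (3 with DESeq2, 0 with library totals), and 11 rose at least 2-fold (39.3%, against 17.8% of all genes). The actin gene act had 1413, 1236 and 1512 CPM in stage 2, against 384, 549.6 and 432 CPM in stage 1, with no overlap and a log2 change of 1.61 ± 0.13. The tropomyosin gene tpm (447 ± 17.8 CPM in stage 2, 177 ± 8.04 CPM in stage 1), the fimbrin gene fim (282 ± 2.56 CPM in stage 2, 94.0 ± 8.03 CPM in stage 1) and the Arp2/3 complex gene arp2 (142 ± 1.31 CPM in stage 2, 49.0 ± 0.197 CPM in stage 1) rose with log2 changes of 1.33, 1.58 and 1.53, and were singled out after their values were seen. Microtubule and motor genes rose in 11 of 18 cases but by less, with a median of 0.29, among them the tubulin genes Bml (916 ± 30.4 CPM in stage 2, 689 ± 45.05 CPM in stage 1) and tba-2 (653 ± 9.64 CPM in stage 2, 501 ± 63.1 CPM in stage 1).

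Cell wall genes moved in both directions, with 10 of 31 higher and 15 lower. gfa1, for the first enzyme towards the chitin precursor, had 369.6 ± 4.14 CPM in stage 2, 67.0 ± 8.68 CPM in stage 1, and the chitin synthase gene chs-3 had 169.8, 167 and 185 CPM in stage 2, against 31.2, 35.2 and 33.6 CPM in stage 1. Among the wall proteins, acw-9 rose (1442 ± 133 CPM in stage 2, 187 ± 18.7 CPM in stage 1), while ncw-3 (3.73 ± 0.222 CPM in stage 2, 79.7 ± 13.04 CPM in stage 1) and ccg-13 (0.849 ± 0.277 CPM in stage 2, 70.9 ± 20.6 CPM in stage 1) fell. gel-3, of a glucan-remodelling family, had 660.0 ± 18.7 CPM in stage 2, 1853 ± 144 CPM in stage 1. Of 23 tested genes of glycan trimming and GPI anchors, 9 rose and 9 fell (39.1% each, near the 39.4% and 37.9% of all genes tested). At least 2-fold, 8 rose and 2 fell. Of the enzymes that trim glycans on secreted proteins, gh47-4 had 237, 232 and 253 CPM in stage 2, against 13.8, 14.4 and 13.7 CPM in stage 1, a log2 change of 4.11 ± 0.07. In the same list gh76-7 fell (68.3 ± 2.59 CPM in stage 2, 105 ± 9.44 CPM in stage 1). Of 8 tested chitinase genes, 3 were lower (37.5%, against 37.9% of all genes tested) and 1 was higher. In the fit of 6 libraries 5 were lower. Among the 3 was gh18-4 (2.12 ± 0.193 CPM in stage 2, 26.8 ± 2.26 CPM in stage 1).

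Histone genes rose in 8 of 9 cases. The 6 genes of core histones and H1 were all at least 2-fold higher, and their sum was 7758 ± 206 CPM in stage 2 and 3164 ± 195 CPM in stage 1 (SD, n = 3 each). hH2B had 1806, 1817 and 1749 CPM in stage 2, against 569, 532 and 566 CPM in stage 1, a log2 change of 1.69 ± 0.06. The 3 variants moved less, with a median of 0.34. The libraries were selected for poly(A), and histone transcripts are counted only as far as they carry it. DNA replication and cell cycle genes rose in 7 of 9 cases, none of them by as much as 2-fold, with 188 ± 0.385 CPM in stage 2, 106 ± 9.48 CPM in stage 1 for pcn, the sliding clamp of DNA polymerase.

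Genes for germling fusion had the highest median of the lists. All 13 tested were higher, 10 at least 2-fold. Prm1, for a protein of plasma membrane merger, had 216, 206 and 237 CPM in stage 2, against 4.13, 4.33 and 3.61 CPM in stage 1, a log2 change of 5.77 ± 0.10. ham-8 had 393, 389.8 and 423 CPM in stage 2, against 11.9, 12.1 and 11.9 CPM in stage 1, a log2 change of 5.07 ± 0.07. ham-7, for a surface sensor of the cell wall pathway, had 249, 232 and 248 CPM in stage 2, against 15.7, 13.1 and 14.2 CPM in stage 1, a log2 change of 4.08 ± 0.08. The stages did not overlap for any of them. The transcription factor genes adv-1 (399 ± 24.8 CPM in stage 2, 54.4 ± 2.69 CPM in stage 1) and pp-1 (242 ± 14.1 CPM in stage 2, 109 ± 10.6 CPM in stage 1), which act in fusion, rose less, and the smallest log2 change was that of ham-4 (0.56).

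Of 29 tested genes of G protein, cAMP and MAP kinase signalling, 12 rose and 12 fell. Each is 41.4%, near the 39.4% and 37.9% of all genes tested. Within this list the MAP kinases and their activating kinases of fusion and the wall rose, and G protein genes fell. This division of the list was made after the values were seen. mek-1, the MAP kinase kinase of the cell wall integrity cascade, had 623, 599.9 and 646 CPM in stage 2, against 96.8, 106 and 103 CPM in stage 1. mak-1, the MAP kinase it activates, had 569, 554 and 595 CPM in stage 2, against 113, 121 and 116 CPM in stage 1. Neither had overlapping stages, and the span of mak-1 overlaps that of NCU09843. mek-2 (159 ± 2.24 CPM in stage 2, 57.1 ± 6.14 CPM in stage 1) and mak-2 (215 ± 5.01 CPM in stage 2, 51.4 ± 15.6 CPM in stage 1), of the fusion cascade, rose with log2 changes of 1.48 and 2.07. The kinases at the top of these cascades did not share this. mik-1 had 82.6 ± 4.25 CPM in stage 2, 101 ± 14.8 CPM in stage 1 (log2 change -0.29, with the call lost under library totals and without stage 1 replicate 2, stage 1 replicate 3 or stage 2 replicate 1, at -0.21, -0.21 and -0.22). nrc-1 did not pass the test, with 65.7 ± 0.957 CPM in stage 2, 59.8 ± 5.21 CPM in stage 1, but did without stage 1 replicate 2 (0.22). pkac-1, for a catalytic subunit of protein kinase A, had 122, 122 and 125 CPM in stage 2, against 9.56, 11.6 and 9.09 CPM in stage 1, a log2 change of 3.61 ± 0.09. All 6 genes of G protein subunits and ric8 fell (4 with library totals), among them gna-1 (251 ± 6.26 CPM in stage 2, 434 ± 24.9 CPM in stage 1), but only 1 of them at least 2-fold. The set of these genes was drawn up after their values were seen. Of 58 tested kinases of the stk and prk series, 31 fell and 14 rose, with stk-22 at 80.3 ± 3.30 CPM in stage 2, 555 ± 131 CPM in stage 1.

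Nitrogen and sulfur genes moved in both directions, with large rises in single genes. Of 11 genes of nitrogen use and amino acid uptake, 5 rose and 4 fell. These are 45.5% and 36.4%, near the 39.4% and 37.9% of all genes tested. Of 5 genes of sulfur acquisition, 2 rose and 1 fell. nit-6, for nitrite reductase, had 43.9, 43.9 and 46.5 CPM in stage 2, against 0.468, 0.536 and 0.641 CPM in stage 1, a log2 change of 6.35 ± 0.10. nit-3, for nitrate reductase, had 74.7 ± 1.34 CPM in stage 2, 14.7 ± 2.19 CPM in stage 1, and nit-10, for a nitrate transporter, 48.7 ± 2.70 CPM in stage 2, 12.6 ± 1.18 CPM in stage 1. These 3 genes of nitrate use were the only members of the nitrogen list at least 2-fold higher, against a background of 17.8%. They were grouped after their values were seen. The amino acid permease gene mtr fell (456 ± 12.1 CPM in stage 2, 1209.6 ± 101 CPM in stage 1). cys-14, for a sulfate permease, had 63.7, 64.5 and 48.0 CPM in stage 2, against 2.12, 2.53 and 2.42 CPM in stage 1, a log2 change of 4.64 ± 0.14. Of 7 phosphate genes, 2 fell (28.6%, against 37.9% of all genes tested), 1 rose and 4 did not pass. Those that fell were pho-4 (13.5 ± 0.195 CPM in stage 2, 28.1 ± 4.98 CPM in stage 1) and pho-5 (1.97 ± 0.292 CPM in stage 2, 11.1 ± 1.28 CPM in stage 1). pho-2 rose (3.07 ± 0.562 CPM in stage 2, 2.07 ± 0.371 CPM in stage 1). Its call was lost without stage 1 replicate 2, stage 2 replicate 2 or stage 2 replicate 3.

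Ion pumps fell more often than they rose, with 8 of 15 lower and 3 higher. pma-1, for the proton pump of the plasma membrane, had 3794, 3978 and 3937 CPM in stage 2, against 5072, 6700.0 and 6408 CPM in stage 1, a log2 change of -0.63 ± 0.11. ena-1, for a sodium pump, had 188 ± 3.91 CPM in stage 2, 912 ± 66.4 CPM in stage 1. The calcium pump gene nca-2 rose (195 ± 15.3 CPM in stage 2, 68.1 ± 9.51 CPM in stage 1).

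Hydrolases of plant polysaccharides gave 11 higher and 10 lower of 31 tested (under DESeq2 scaling, 10 and 11). The 11 and 10 genes are 35.5% and 32.3%, near the 39.4% and 37.9% of all genes tested. The largest rises were those of gh61-2, for a lytic polysaccharide monooxygenase, with 58.5, 63.7 and 78.6 CPM in stage 2, against 0.935, 0.923 and 1.27 CPM in stage 1, and gh61-7 of the same family, with 10.8 ± 0.448 CPM in stage 2, 0.201 ± 0.110 CPM in stage 1. The transcription factors that control these enzymes in N. crassa fell, with 6.82 ± 0.262 CPM in stage 2, 55.2 ± 2.91 CPM in stage 1 for xlr-1 and 12.01 ± 1.04 CPM in stage 2, 41.2 ± 4.66 CPM in stage 1 for clr-1, both singled out after their values were seen. The glucose repressor gene cre-1 fell as well (84.2 ± 2.03 CPM in stage 2, 193 ± 6.37 CPM in stage 1). Over all 39 listed transcription factors, 12 rose and 19 fell (30.8% and 48.7%, against 39.4% and 37.9% of all genes tested).

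Ribosomal proteins rose slightly. Of 11 tested genes, 10 were higher, and the log2 changes of all 11 lay between 0.17 and 0.40, but only 2 passed with library totals as scaling. po had 3800.2 ± 82.3 CPM in stage 2, 2883 ± 31.6 CPM in stage 1. tef-1, for the elongation factor that brings transfer RNA to the ribosome, had 25582, 26082 and 25137 CPM in stage 2, against 16698, 19836 and 19344 CPM in stage 1, a log2 change of 0.46 ± 0.09. Among transfer RNA synthetases, cyt-20 was lower (564 ± 6.73 CPM in stage 2, 1041 ± 179 CPM in stage 1).

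Chromatin, repair and RNA silencing lists moved in both directions. Of 54 chromatin genes, 24 rose and 19 fell (12 with library totals), with a median of 0.13. The 24 and 19 genes are 44.4% and 35.2%, near the 39.4% and 37.9% of all genes tested. dim-2, for the DNA methyltransferase (70.1 ± 1.50 CPM in stage 2, 40.5 ± 1.01 CPM in stage 1), and dim-5, for the histone methyltransferase that directs it (14.6 ± 0.509 CPM in stage 2, 7.19 ± 0.844 CPM in stage 1), rose. DNA repair genes were higher in 23 of 38 cases, among them rad23 (190.1 ± 4.20 CPM in stage 2, 59.8 ± 0.532 CPM in stage 1), and lower in 9, among them rad16 (15.7 ± 0.405 CPM in stage 2, 139.6 ± 5.56 CPM in stage 1) and mus-18, for an endonuclease that cuts at ultraviolet damage (112 ± 2.66 CPM in stage 2, 252 ± 24.0 CPM in stage 1). The silencing genes qde-2 (84.6 ± 2.72 CPM in stage 2, 52.5 ± 1.28 CPM in stage 1) and dcl-1 (12.2 ± 0.611 CPM in stage 2, 5.51 ± 0.684 CPM in stage 1), for an argonaute and a dicer, rose.

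The lists were also described by the share of all counts they took. Glycolysis and pyruvate genes took 2.00%, 2.11% and 2.01% of the counts in stage 2, against 0.517%, 0.674% and 0.635% in stage 1. Conidiation genes took 0.290%, 0.302% and 0.286% in stage 2, against 1.95%, 1.69% and 1.70% in stage 1, mostly through eas. Amino acid synthesis took 3.62% to 3.88% in stage 2, against 4.11% to 5.16% in stage 1. The proteasome took 0.391% to 0.400% in stage 2, against 0.0916% to 0.0988% in stage 1. Of the 20 genes with most counts outside ribosomal RNA, 10 were shared by the stages. The 100 most counted genes took 34.8% to 36.0% of the counts outside ribosomal RNA in stage 2, against 32.3% to 32.8% in stage 1.

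**Figure D5:**
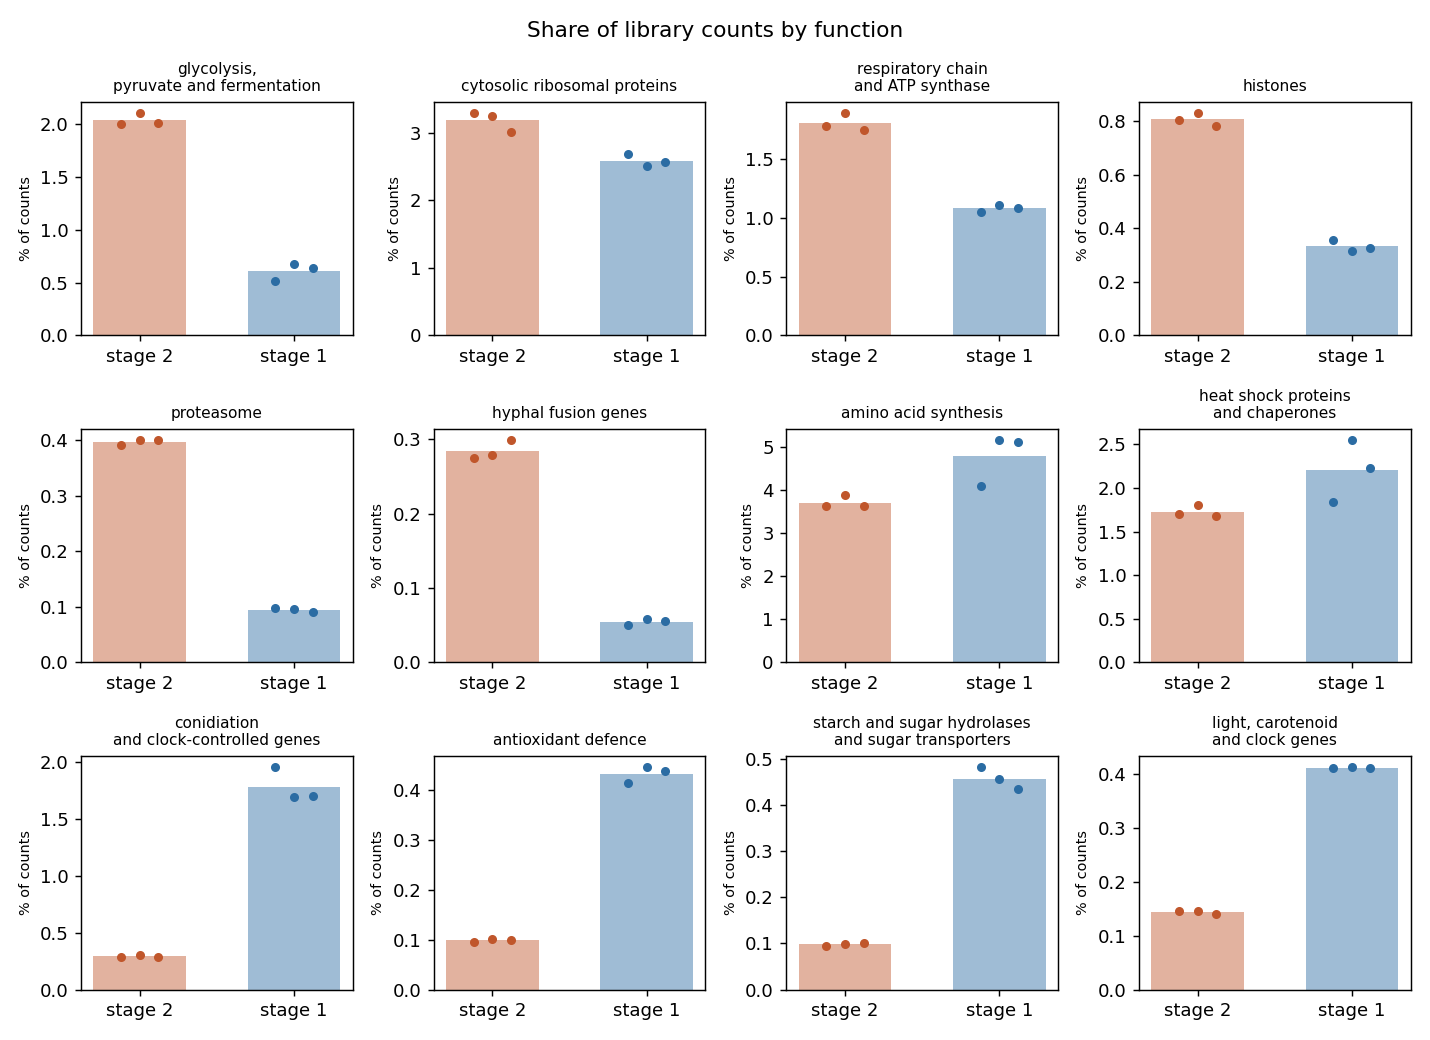
Share of all library counts (percent, vertical axes from 0) taken by 12 function lists in each library of stage 2 (left) and stage 1 (right), with bars at the means. Glycolysis genes stand at 2.00% to 2.11% in stage 2 against 0.517% to 0.674% in stage 1, and conidiation genes at 0.286% to 0.302% in stage 2 against 1.69% to 1.95% in stage 1.

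Outside the SMCs, and among genes whose higher stage averaged 10 CPM or more without overlap between libraries, the 6 largest rises and 6 largest falls by fold were of genes without a symbol, whose products are not annotated in the table used. NCU10687 (chromosome I, 1094589 to 1097657) had 372, 392 and 423 CPM in stage 2, against 1.11, 2.08 and 1.602 CPM in stage 1, a log2 change of 7.95 ± 0.20. NCU11172 (chromosome III, 2861439 to 2863151) had 180.5, 181 and 203 CPM in stage 2, against 0.935, 0.774 and 0.743 CPM in stage 1, a log2 change of 7.84 ± 0.12. Of the falls, NCU09231 (chromosome I, 9473593 to 9474921) had 0.786, 0.544 and 0.643 CPM in stage 2, against 402, 337 and 368 CPM in stage 1, a log2 change of -9.15 ± 0.22. Its stage 2 libraries held 38, 35 and 44 counts. NCU07044 (chromosome IV, 5006091 to 5007223) had 7.94, 5.48 and 4.81 CPM in stage 2, against 1619, 1515 and 1665 CPM in stage 1, a log2 change of -8.05 ± 0.27. By the same rule NCU12068, NCU09562, NCU03247 and NCU05712 rose and NCU03991, NCU09859 and NCU04697 fell, but their lower stage had between 0 and 46 counts in a library, as did that of NCU07449, described next. NCU03247, for example, had 1547, 1999 and 2594 counts in stage 2, against 3, 0 and 2 counts in stage 1. The fall of NCU04697 was not called by DESeq2. NCU03600 had the largest rise in CPM of a gene without symbol, with 3257 ± 251 CPM in stage 2, 58.4 ± 6.59 CPM in stage 1, and after eas the largest falls in CPM were those of mig-6 (654 ± 14.004 CPM in stage 2, 4398 ± 117 CPM in stage 1) and mig-4 (53.5 ± 3.86 CPM in stage 2, 3127 ± 122 CPM in stage 1). tol, a gene of heterokaryon incompatibility that is in no list, had 17.3, 18.96 and 19.98 CPM in stage 2, against 0.454, 0.342 and 0.160 CPM in stage 1, a log2 change of 5.86 ± 0.20.

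Few transcripts disappeared or appeared altogether. Below 3 counts in every library of stage 2 and with at least 1 CPM in stage 1 were 6 genes, all of them at 0 counts in stage 2. They included con-13, next to con-10 on the chromosome, with 0 CPM in every library of stage 2, against 9.04, 7.58 and 7.35 CPM in stage 1. Set against the level of 3 counts in a library, this is at least 129-fold lower. The others were NCU07449, NCU16494, NCU05567, NCU10865 and NCU07350, with stage 1 means between 1.75 and 18.3 CPM. In stages 3 and 4, 3 of the 6 were again below the floor in every library. The reverse held for 3 genes, NCU16430 (3.31, 3.27 and 3.41 CPM in stage 2, against 0 CPM in every library of stage 1), NCU05834 (2.09, 1.93 and 2.98 CPM in stage 2, against 0 CPM in every library of stage 1) and NCU03160. The last was counted in stage 2 replicate 3 alone, at 5.39 CPM. With a floor of 10 counts the numbers were 28 lost and 11 gained, so loss and gain in this strict sense touched few genes at either floor.

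Strong changes were often found in neighbouring genes, also outside the SMCs. Of the 195 genes at least 8-fold higher, 45 (23.1%) had a next tested neighbour of the same class, against 336 (4.21%) of 7975 other genes. Of the 296 genes at least 8-fold lower, 59 (19.9%) had such a neighbour, against 511 (6.49%) of 7874 others. The longest runs were 4 genes higher, NCU09953 to NCU09956 (chromosome V, 6033313 to 6041800), and 5 lower, NCU08056, NCU08057, NCU08058, NCU08060 and NCU08062 (chromosome I, 122928 to 139980). In the first, NCU09954 had 36.1 ± 3.99 CPM in stage 2 and 0.840 ± 0.0526 CPM in stage 1. In the second, NCU08056 had 12.3 ± 1.82 CPM in stage 2 and 342 ± 29.4 CPM in stage 1. Neighbours that overlap can share reads, and the part of this was not tested. Of the genes named above by the fixed rule, con-6, hex-1, fsd-1, cyt-19, pho-4, pgk, oli, vma-1, pma-1, hH2B, gh47-4, gnn, ilv-2, pdx-1, csn-1, po, mig-6, NCU09562 and NCU16012 have spans that overlap another annotated gene, and their counts are uncertain to that extent.

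Genes that fell at least 4-fold were shorter, with a median annotated span of 1834 bp over 610 genes, against 2255.5 bp over 484 genes that rose as much and 2327 bp over all 8195 protein-coding genes tested. The part of RNA quality in this was not tested. Of 112 tested non-coding RNA genes, 24 rose and 39 fell (21.4% and 34.8%, against 39.4% and 37.9% of all genes tested). Of the 25 tested protein-coding genes of the mitochondrial genome, 9 fell, 0 rose and 16 did not pass. The falls are 36.0%, against 37.9% of all genes tested, and the absence of rises stands against 39.4%. All 9 falls were at least 2-fold, against 18.0% of all genes tested that fell so far. A fit of the 6 libraries alone called 11 of these mitochondrial genes lower and 2 higher. Among them NCU16012 fell (1.99 ± 0.501 CPM in stage 2, 30.5 ± 3.44 CPM in stage 1), and its call was lost with DESeq2. Both fits also hold stage 3, where this gene had 1.00, 32.6 and 1.21 CPM in replicates 1, 2 and 3. The part of stage 3 replicate 2 in the lost call was not tested. The part of the poly(A) selection in these values was not tested.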

How the data were processed

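RNA was sequenced as stranded, paired-end, poly(A)-selected libraries. Per the labels and methods, reads were trimmed by the authors and aligned to the NC12 assembly of strain OR74A with HISAT2 2.1.0, and the authors made a table of estimated counts per gene with StringTie 1.3.3b and its export script. The deposited estimated counts are whole numbers derived from coverage, so a floor of 3 counts covers counting error only. Whether counting used strand is not given in the sources used here. A second deposited table holds the authors' own relative expression ratios with interval widths, and was not used.

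Counts of all 12 libraries were fitted in edgeR 4.0.16 (R 4.3.3) by its quasi-likelihood test after filtering with a minimum count of 10 and TMM scaling, with Benjamini-Hochberg adjustment over 8330 genes and a threshold of 0.05. CPM were computed from the same factors. The p-values set the difference between stage 2 and stage 1 against the spread among biological replicates, 3 per stage. That spread was estimated over all 12 libraries, with 8 residual degrees of freedom. Between 48267425 and 71990884 counts per library and a biological coefficient of variation of 10.8% set the precision. In simulated counts, 199 of 8251 genes were changed 2-fold or 4-fold in stage 2. Of these changes 87% of the 2-fold and 98.0% of the 4-fold were recovered. Unchanged genes made up 9.80% of calls, at the threshold of 0.05. In the data 77.3% of genes were called, a far larger part than was changed in the simulation, so these rates need not hold for this comparison. DESeq2 1.42.0, other scalings, no filter, a replicate block and leaving out libraries were alternatives.

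Function lists rest on gene symbols, since product names were not in the annotation used, in which 10590 IDs matched and 1118 had a symbol. Members and lists were chosen with earlier results of these data known. Genes were named as the largest changes by fold (12 genes, then 16 with a symbol), as the 16 largest changes in CPM, as up to 2 called members with the highest mean CPM per list and direction, and as 14 markers. SMC and ribosomal RNA genes were left out of all but the markers. Genes named beyond this, and the subunit groups, were chosen after values were seen.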

Additional observations from a re-analysis of the deposited data

How the results depend on the processing

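No gene called in both the reported fit and an alternative changed direction. The balance of calls did, with 3285 higher and 3153 lower as reported, 3111 and 3309 with the size factors of DESeq2, and 3144 and 3311 with DESeq2. The median of the peroxisome and fatty acid list was 0.03 as reported and -0.02 with those size factors. Of the 6438 changed genes, 2982 also differed at least 2-fold, 1481 higher and 1501 lower. The count of changed genes was 6455 with DESeq2, 6420 with the size factors of DESeq2, 5585 with library totals, 6468 of 9651 genes without the filter, 6395 in a fit of the 6 libraries alone and 6447 without ribosomal RNA genes. When each library was left out in turn, 6198 to 6388 genes changed, 3204 to 3317 of them higher and 2962 to 3071 lower. With the replicate number as a replicate block 6395 genes were called. The numbers share no stated batch, and same-numbered libraries deviated together with r of 0.17, 0.043 and 0.052 over 5750 genes, so they were not taken as pairs. With a floor of 10 counts, 28 genes were lost and 11 gained.

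With library totals, 12 of 88 list counts moved by more than 1.5 times. Of 276 named genes, 22 lost their call with library totals, 6 with DESeq2 and 80 when a 2-fold change was required as well. Falls cannot be told apart from a smaller share of RNA, counts were estimated from coverage, and levels of libraries labelled stage 2 and stage 4 could not be separated.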
